A study of Mus musculus with 9 samples.

Results

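Fatty acid elongase and desaturase genes were described in periprostatic fat, the white adipose tissue that surrounds the prostate, taken from male C57BL/6J mice. A group of 5 mice ate a high fat diet that drew 60 percent of its kcal from fat, and a group of 4 mice ate a low fat diet that drew 10 percent. Both groups started the diets at 6 weeks of age, stayed on them for 12 weeks and were killed at 18 weeks, and no genetic change is stated for either. Each mouse, by its label, gave 1 Affymetrix Mouse Gene 2.0 ST array, and values are log2 expression per probe set. The members are 10 named genes: Elovl1, Elovl3, Elovl4, Elovl5, Elovl6, Elovl7, Scd1, Scd2, Fads1 and Fads2. A gene entered through a probe set annotated with exactly 1 gene symbol. Of the 10, 9 were measured in this way, among 22180 genes in all, each of the 9 by 1 probe set. The probe set of Scd2 carries the symbol Mir5114 as well and entered no result.

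Elongases of the Elovl family sit in the endoplasmic reticulum and catalyse the first, condensing step of the cycle that adds carbon units from malonyl-CoA to a fatty acid. Each prefers a class of substrate, defined by chain length and unsaturation. The stearoyl-CoA desaturases, encoded by the Scd genes, put the first double bond into saturated fatty acids, and Fads1 and Fads2 add further double bonds to make long polyunsaturated fatty acids from dietary precursors. In adipose tissue Elovl6 and Scd1 act directly after fatty acid synthase, and products of these enzymes end in triglyceride and in membrane lipids. The comparison asks how transcripts of these genes differ between the depots of mice on the high fat and the low fat diet.

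Arrays correlated at 0.991 to 0.996 within diets and at 0.973 to 0.989 between diets, across genes. All 8 adipocyte marker genes lay above the median of every array, and 9 of 11 markers of prostate and seminal vesicle epithelium lay below the median of every array. Skeletal muscle markers stood out in high fat mouse 1, at a log2 list mean of 8.41 where the rest of that group had 6.23 to 6.32. Low fat mouse 4 was at 7.12 on the same list, and the rest of the low fat group had 6.26 to 6.45. Smooth muscle markers were high in low fat mouse 2, with a log2 list mean of 10.53 where the rest of that group had 8.14 to 8.18. Array medians over all rows were between 6.45 and 6.50. A gene whose values lie below these medians is called dim here, and whether a dim gene lay above background was not determined.

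The high fat depot had less Elovl6 and Fads1 transcript and more Elovl1 transcript than the low fat depot. Elovl6 was 2.74-fold lower, Fads1 1.52-fold lower and Elovl1 1.35-fold higher, and for each of them the 2 diets had no range of values in common. Elovl5 and Scd1 were 1.11-fold lower each, changes that passed the test with all 9 arrays and were lost under many alternatives. Elovl3, Elovl4, Elovl7 and Fads2 did not pass. Thus 1 of 9 members rose and 4 fell by limma with Benjamini-Hochberg adjustment over 22180 genes at a threshold of 0.05. Of all genes tested 21.5% passed, 12.4% as higher and 9.13% as lower in the high fat depot. In whole tissue, fewer cells of a type and less transcript per cell cannot be told apart, and adipocyte markers fell in 6 of 8 genes. The direction of calls over all genes moved with scaling. In the values as deposited 2742 genes were higher and 2026 genes lower, and after repeated quantile normalization 2320 and 2771. With arrays centred on their medians over the 22180 genes, the counts were 2227 and 3056. Those medians were 6.96 to 6.98 in high fat mice and 6.91 to 6.95 in low fat mice. The median log2 difference of the 9 members was -0.08, against -0.001 over all genes. In 5 of 9 members no high fat value lay within the low fat range, nor the reverse, against 20.7% of all genes. The count of members called was 3 (1 higher and 2 lower) in each fit that left out high fat mouse 1, 2 or 3 or low fat mouse 1 or 4, and also without high fat mice 1 and 2 together or high fat mouse 1 and low fat mouse 2 together.

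**Figure D1:**
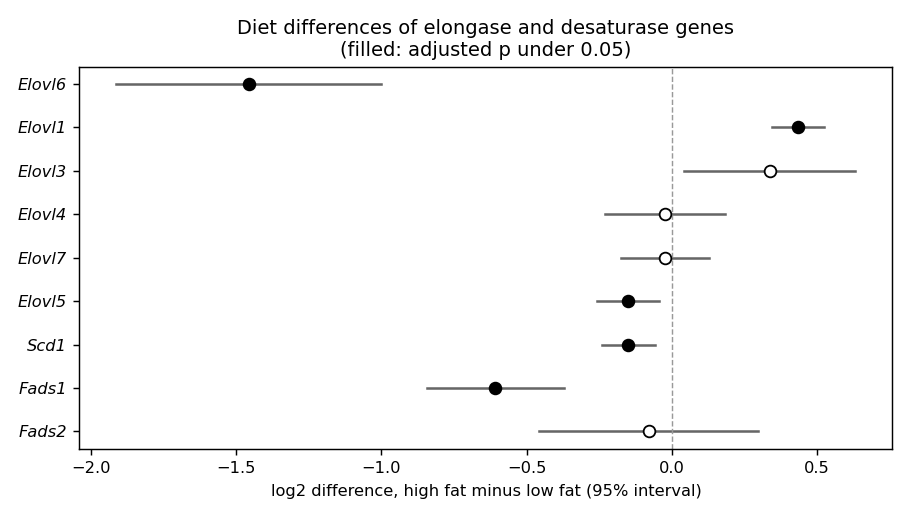
The log2 difference between high fat and low fat diet is plotted for each of the 9 measured genes, with its 95% interval from limma as a horizontal line. Filled points passed an adjusted p of 0.05. The point of Elovl6, at -1.46, and its whole interval lie apart from those of the other elongases, and Elovl1 is the only filled point to the right of 0.

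Elovl6 elongates saturated and monounsaturated long chain fatty acids and converts palmitate to stearate. Its log2 values (probe set 17402558) were 9.62, 9.47, 9.52, 9.22 and 9.20 in high fat mice 1 to 5, against 10.99, 11.37, 10.17 and 10.92 in low fat mice 1 to 4. Every high fat mouse lay below every low fat mouse, and the low fat mice were spread more widely, with low fat mouse 3 nearest to the high fat group. High fat mice averaged 9.40 ± 0.19 (SD, n = 5) and low fat mice 10.86 ± 0.50 (SD, n = 4), a log2 difference of -1.46 ± 0.20 (SE) with a limma adjusted p of 0.000824. By size this was rank 42 among the decreases of all 22180 genes. Without low fat mouse 3 the difference was -1.69, and without low fat mouse 2 it was -1.29. It passed in all 20 alternative fits.

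The 4 low fat mice held the same order at both ends in Elovl6 and in the genes that supply its substrates. The list of substrate supply held Acly, Acss2, Acaca, Acacb, Fasn, Me1 and Slc25a1. All 7 of 7 were highest in low fat mouse 2 and lowest in low fat mouse 3 among low fat mice. Elovl6 and Elovl3 had these ends too, and no other measured member did. Elovl3 was dim, and its lowest value, 5.52 in low fat mouse 3, was close to 5.54 in low fat mice 1 and 4. Of all 22180 genes, 7.89% had these ends. The brown adipocyte list mean had the same ends (7.47, 8.26, 7.34 and 7.49 in low fat mice 1 to 4). Low fat mouse 2 was also apart in the smooth muscle list mean and low fat mouse 3 in the sebaceous and epidermal list mean. The part of these markers in this order was not tested. Acly, which makes cytosolic acetyl-CoA, was at 10.78 to 11.09 in the high fat mice, against 12.42 in low fat mouse 2 and 11.12 in low fat mouse 3. Fads1 was also highest in low fat mouse 2 but lowest in low fat mouse 1.

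The sequences around the transcription start, from 250 bases before to 50 after it, are shown for the members that changed and have an entry in the RefSeq promoter table (build GRCm38.p6). Elovl1, which has 2 windows from different starts, Elovl5 and Elovl6 have entries, Scd1 and Fads1 do not, and of the 9 measured members 6 matched. Capitals mark matches, on either strand, to the letters CCAAT (the NF-Y box), CACGTG (an E-box), GGGCGG (a GC box) and TGACGTCA (the cAMP response element), elements that occur in many promoters.
Elovl6, chr3:129532136-129532435, + strand: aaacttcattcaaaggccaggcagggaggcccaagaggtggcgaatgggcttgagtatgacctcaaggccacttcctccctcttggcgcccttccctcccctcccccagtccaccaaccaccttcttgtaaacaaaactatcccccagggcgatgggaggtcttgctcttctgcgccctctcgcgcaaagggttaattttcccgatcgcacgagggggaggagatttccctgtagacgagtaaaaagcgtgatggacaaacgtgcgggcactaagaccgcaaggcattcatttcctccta
Elovl5, chr9:77917115-77917414, + strand: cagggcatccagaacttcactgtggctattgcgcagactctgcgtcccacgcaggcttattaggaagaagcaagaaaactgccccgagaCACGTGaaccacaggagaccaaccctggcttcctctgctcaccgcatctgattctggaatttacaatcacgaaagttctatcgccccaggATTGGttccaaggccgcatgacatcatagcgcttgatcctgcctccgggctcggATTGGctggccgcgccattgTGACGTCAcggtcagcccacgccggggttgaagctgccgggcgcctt
Elovl1, chr4:118427843-118428142, + strand: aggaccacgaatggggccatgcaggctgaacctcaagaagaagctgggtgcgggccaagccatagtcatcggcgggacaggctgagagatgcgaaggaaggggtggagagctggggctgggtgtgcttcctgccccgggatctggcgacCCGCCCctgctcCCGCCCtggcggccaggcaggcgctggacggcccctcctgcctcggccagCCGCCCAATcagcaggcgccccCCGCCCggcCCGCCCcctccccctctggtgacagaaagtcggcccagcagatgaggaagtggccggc
Elovl1, chr4:118429451-118429750, + strand: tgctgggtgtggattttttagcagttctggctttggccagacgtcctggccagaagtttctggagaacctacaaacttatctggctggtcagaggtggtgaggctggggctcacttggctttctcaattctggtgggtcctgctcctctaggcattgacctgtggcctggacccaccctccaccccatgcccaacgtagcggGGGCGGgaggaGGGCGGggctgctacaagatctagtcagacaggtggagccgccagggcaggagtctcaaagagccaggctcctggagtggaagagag
The Elovl6 window held none of these 4 motifs. The Elovl5 window held CCAAT at 2 places, CACGTG at 1 and TGACGTCA at 1. The first Elovl1 window held GGGCGG at 5 places and CCAAT at 1, which overlaps a GGGCGG match, and the second Elovl1 window held GGGCGG at 2. Of all 32851 windows in the table, 37.4% held CCAAT, 35.7% GGGCGG, 7.15% CACGTG and 1.79% TGACGTCA. A match or its absence describes these letters in this window only.

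Elovl1, which elongates saturated and monounsaturated chains to the very long chains of sphingolipids, was the single member that rose. Its log2 values (probe set 17417767) were 9.50, 9.55, 9.61, 9.54 and 9.54 in high fat mice 1 to 5, against 9.12, 9.14, 9.16 and 9.03 in low fat mice 1 to 4. Both groups were tight and well apart. High fat mice averaged 9.55 ± 0.04 (SD, n = 5) and low fat mice 9.11 ± 0.06 (SD, n = 4), a log2 difference of 0.44 ± 0.04 (SE) with a limma adjusted p of 0.00012. Between 0.39 and 0.45 in 19 alternative fits and 0.83 relative to adipocyte markers, the difference of Elovl1 passed in all 20 alternative fits. Macrophage markers moved the same way: all 8 of 8 rose, where 12.4% of all genes rose, and in Lyz2 the diets overlapped. Their list mean was 11.32 to 11.96 in high fat mice and 9.44 to 10.01 in low fat mice. The list mean of Schwann cell markers, of which 2 of 5 rose, was also higher, at 6.58 to 6.83 against 6.36 to 6.51. The part of either cell type in the difference of Elovl1 was not tested.

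Elovl3, Elovl4 and Elovl7 were dim, with all 9 arrays of each below the lowest array median. Elovl3, an elongase of saturated chains known from brown fat, liver and skin glands, was at 6.03, 6.37, 5.88, 5.69 and 5.74 in high fat mice 1 to 5 and at 5.54, 5.82, 5.52 and 5.54 in low fat mice 1 to 4. High fat mouse 2 was the highest, and low fat mouse 2 lay above high fat mice 4 and 5, so the groups overlapped. The log2 difference was 0.34 ± 0.13 (SE), with a 95% interval from 0.04 to 0.63 and a limma adjusted p of 0.105. The list mean of brown adipocyte markers was 7.23 to 7.75 in the high fat mice. It was 8.26 in low fat mouse 2 and 7.34 to 7.49 in the rest of the low fat group. Their part in the level of Elovl3 was not tested. The difference of Elovl3 was 0.23 without high fat mouse 2, 0.17 without high fat mice 1 and 2 together and 0.41 without low fat mouse 2, and it passed in none of these fits.

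Elovl4, which builds the longest chains of skin, retina and brain, was at 5.95 to 6.03 in the high fat mice, against 6.00, 5.76, 6.32 and 6.00 in low fat mice 1 to 4. The spread lay in the low fat group. The log2 difference was -0.02 ± 0.09 (SE), with a 95% interval from -0.23 to 0.18 and a limma adjusted p of 0.895, and it turned to 0.08 without low fat mouse 3. The list mean of sebaceous and epidermal markers was 6.10 to 6.19 in the high fat mice, and it was 6.60 in low fat mouse 3 and 6.12 to 6.13 in the rest of the low fat group. Among low fat mice, low fat mouse 3 was highest in Krt14 (7.07), Krt79 (8.04) and Awat2 (7.73) of this list. It was not highest in Mc5r, Awat1 or Krt15 and was lowest in Trp63 (6.29). The part of these markers in the level of Elovl4 was not tested. Elovl7, an elongase of saturated chains studied in prostate cancer, was at 5.60 to 5.93 in the high fat mice and 5.72 to 5.86 in the low fat mice. Its log2 difference was -0.02 ± 0.07 (SE), with a 95% interval from -0.18 to 0.13 and a limma adjusted p of 0.847, and it turned to 0.01 without high fat mouse 3 and to 0.004 without low fat mouse 3.

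**Figure D2:**
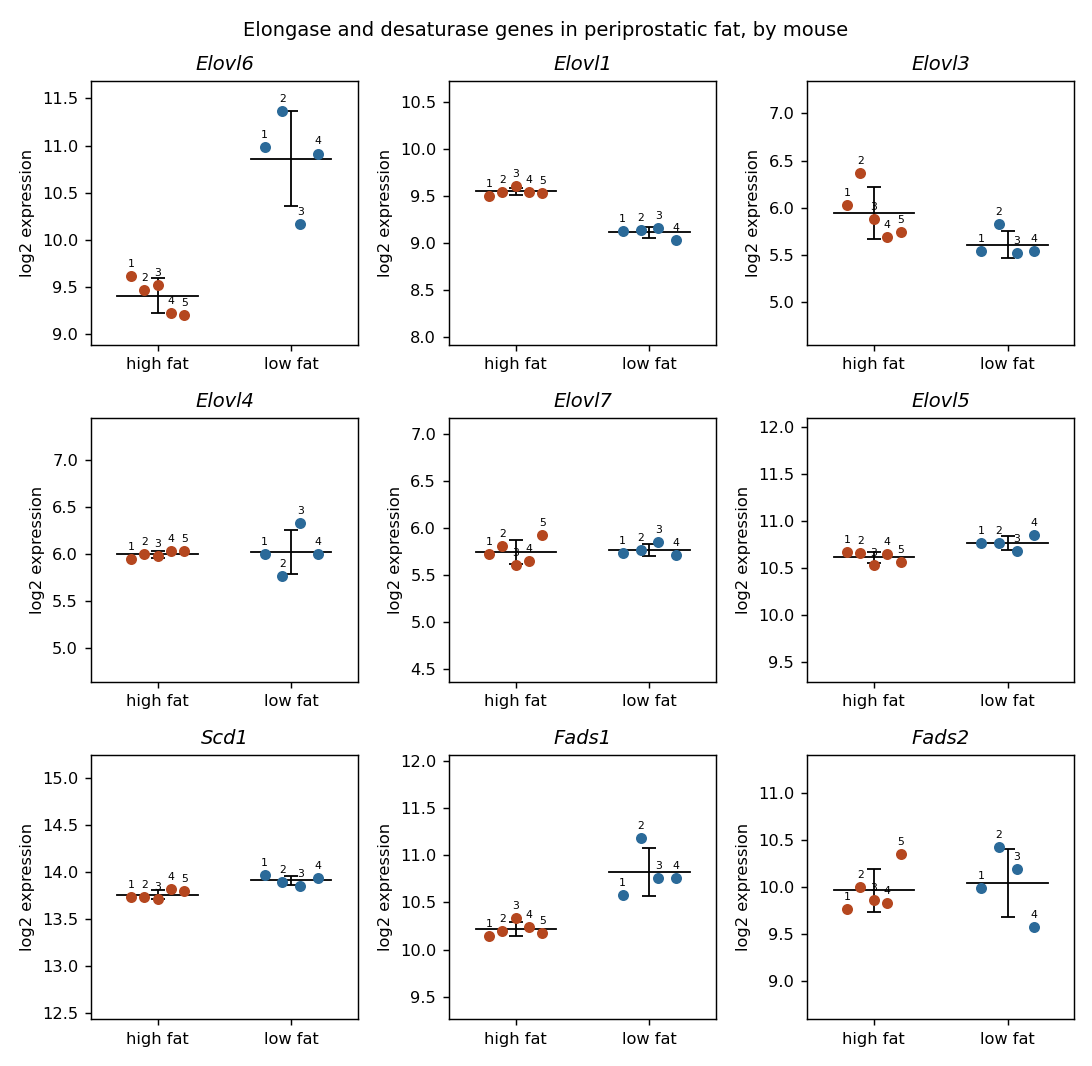
Log2 expression is shown for each measured elongase and desaturase gene in 5 high fat and 4 low fat mice, with the mouse number above each point, the mean as a line and the SD as a bar. Every panel spans the same height in log2 units. Elovl6, Fads1 and Elovl1 show groups set clearly apart, while Elovl3, Elovl4, Elovl7 and Fads2 overlap.

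Elovl5 elongates polyunsaturated fatty acids and acts between the Fads2 and Fads1 steps. It was at 10.67, 10.66, 10.53, 10.64 and 10.56 in high fat mice 1 to 5, against 10.77, 10.77, 10.68 and 10.85 in low fat mice 1 to 4. The groups touched without overlapping, since high fat mouse 1 at 10.669 was next to low fat mouse 3 at 10.677. High fat mice averaged 10.61 ± 0.06 (SD, n = 5) and low fat mice 10.77 ± 0.07 (SD, n = 4), a log2 difference of -0.15 ± 0.05 (SE) with a limma adjusted p of 0.0487. The call of Elovl5 ended in 8 of the 9 fits that leave out 1 mouse, with the exception of low fat mouse 3, and its difference in the 9 fits was between -0.18 and -0.12. It also ended with all rows tested or a trended, robust variance (-0.15 each), with array weights (-0.14), and with high fat mouse 1 left out together with high fat mouse 2 (-0.18) or low fat mouse 2 (-0.17).

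Scd1, the main stearoyl-CoA desaturase of adipose tissue and liver, lay near the top of the measured range. Its values (probe set 17365098) were 13.74, 13.74, 13.71, 13.82 and 13.79 in high fat mice 1 to 5, against 13.97, 13.89, 13.85 and 13.94 in low fat mice 1 to 4, where the highest value of any row was 14.22. Every high fat mouse lay below every low fat mouse by a small margin. High fat mice averaged 13.76 ± 0.05 (SD, n = 5) and low fat mice 13.91 ± 0.05 (SD, n = 4). The log2 difference of Scd1 was -0.15 ± 0.04 (SE) with a limma adjusted p of 0.0279. It no longer passed without high fat mouse 1 (-0.14), 2 (-0.14) or 3 (-0.14) or without low fat mouse 1 (-0.13) or 4 (-0.14), nor with high fat mouse 1 left out together with high fat mouse 2 (-0.13) or low fat mouse 2 (-0.15). Repeated quantile normalization left -0.02, which did not pass. Whether the probes approached saturation was not determined, so the size of the change holds for the values as deposited. Scd1 has close relatives whose probes can share signal. On chromosome 19, by the order of protein-coding genes in RefSeq, Scd3, Scd2, Scd4 and Scd1 follow each other, and Scd3 (0.03 ± 0.06, SE) and Scd4 (-0.07 ± 0.06, SE), named here for their position, did not pass (limma adjusted p of 0.787 and 0.448).

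Fads1, the desaturase that makes arachidonate, fell. Its values (probe set 17357460) were 10.14, 10.20, 10.34, 10.23 and 10.17 in high fat mice 1 to 5, against 10.58, 11.19, 10.76 and 10.76 in low fat mice 1 to 4. The highest high fat mouse lay below the lowest low fat mouse. High fat mice averaged 10.22 ± 0.08 (SD, n = 5) and low fat mice 10.82 ± 0.26 (SD, n = 4), a log2 difference of -0.61 ± 0.11 (SE) with a limma adjusted p of 0.00261. Without low fat mouse 2, the highest, the difference of Fads1 was -0.49, which passed.

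Fads2, which catalyses the step at the entry of the same pathway, overlapped between diets. Its values were 9.77, 9.99, 9.86, 9.83 and 10.35 in high fat mice 1 to 5, against 9.98, 10.42, 10.18 and 9.57 in low fat mice 1 to 4. High fat mouse 5 and low fat mouse 2 were the highest and low fat mouse 4 the lowest. The log2 difference was -0.08 ± 0.17 (SE), with a 95% interval from -0.46 to 0.30 and a limma adjusted p of 0.795, and without low fat mouse 2 it was 0.05. Fads3, Fads2 and Fads1 follow each other in that order on chromosome 19 among RefSeq protein-coding genes. Fads3, a related desaturase, rose with a log2 difference of 0.36 ± 0.07 (SE) and a limma adjusted p of 0.00439. Fads3 and Fads1 thus changed in opposite directions, and Fads2, which lies between them, did not pass.

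Differences between 2 genes within each array, which do not depend on how arrays are centred, were set against diet for 5 pairs with an exact permutation test, two-sided, over all 126 assignments of the mice, and adjusted over the 5 pairs. The smallest p this design allows is 0.0159. Fads1 minus Fads2 averaged 0.26 ± 0.26 (SD, n = 5) with high fat diet and 0.78 ± 0.28 (SD, n = 4) with low fat diet, a difference of -0.53 (exact permutation p = 0.0159, adjusted p = 0.0198). Elovl6 fell by more than Elovl5 (-1.31), Scd1 (-1.31) and the fatty acid synthase gene Fasn (-0.76), each with exact permutation p = 0.0159 and adjusted p = 0.0198. Elovl6 alone was at most 9.62 in high fat mice and at least 10.17 in low fat mice. That gap is wider than the whole range of Elovl5 (10.53 to 10.85) or Scd1 (13.71 to 13.97). The separation and the p of Elovl6 minus Elovl5 and Elovl6 minus Scd1 were therefore set by Elovl6 and add no support of their own. Saturation of the Scd1 and Fasn probes was not determined, so Elovl6 minus Scd1 and Elovl6 minus Fasn hold only for the signals as deposited. Fasn was at 12.87 to 13.07 in high fat mice and 13.44 to 13.81 in low fat mice. In each of these 4 pairs the values of all 5 high fat mice lay below those of all 4 low fat mice. Elovl5 minus Fads2 overlapped, with a difference of -0.07 (exact permutation p = 0.762, adjusted p = 0.762). Fits without 1 mouse called 4 pairs each, and fits without 2 mice called 0, where 35 assignments allow no exact p below 0.0571.

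The list of enzymes that complete the elongation cycle or feed electrons to the desaturases held 11 genes, of which 2 rose, 2 fell and 7 did not pass, with a median log2 difference of 0.02. Over all genes the shares were 12.4% higher and 9.13% lower. Hacd4 and Hacd2 encode dehydratases of the elongation cycle. Hacd4 was at 9.20, 9.28, 9.26, 9.05 and 9.22 in high fat mice 1 to 5 and at 8.83, 8.47, 8.66 and 8.48 in low fat mice 1 to 4. It was thus 1.51-fold higher, while Hacd2 was 1.18-fold lower. Cyb5r4, a cytochrome b5 reductase, was 1.25-fold higher, and Cyb5a, the cytochrome b5 that carries electrons to desaturases, was 1.16-fold lower. The other cytochrome b5 and reductase genes on the list, Cyb5b (0.06), Cyb5r1 (0.18) and Cyb5r3 (0.02), did not pass. Limma adjusted p was 0.000695 for Hacd4, 0.00593 for Hacd2, 0.00103 for Cyb5r4 and 0.024 for Cyb5a. Cyb5a did not pass without high fat mouse 2 (-0.19), 3 (-0.21) or 1 and 2 together (-0.20), nor without low fat mouse 1 (-0.21) or 4 (-0.18). The reductases of the cycle did not pass: Hsd17b12 differed by -0.14 ± 0.11 (SE, 95% interval -0.38 to 0.09) and Tecr by -0.02 ± 0.08 (SE, 95% interval -0.19 to 0.15), with limma adjusted p of 0.397 and 0.895. Without low fat mouse 3, Hsd17b12 was at -0.26 and passed, whereas it was at -0.09 without high fat mouse 4 and without low fat mouse 4. Without low fat mouse 2, Tecr was at 0.07. Of 7 related elongase and desaturase genes, 2 rose, Fads3 and Degs1, the ceramide-forming desaturase, which was 1.51-fold higher (limma adjusted p = 0.00012), and 5 did not pass.

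Of 7 substrate supply genes 6 fell and 1 did not pass, with a list median of -0.69, where 9.13% of all genes fell. Acaca, the acetyl-CoA carboxylase that makes malonyl-CoA for synthesis and elongation, was at 10.24, 10.18, 9.94, 10.00 and 10.30 in high fat mice 1 to 5, against 11.75, 12.14, 11.25 and 11.98 in low fat mice 1 to 4. This was a 3.14-fold decrease, and its relative Acacb was 2.83-fold lower, Acly 1.93-fold and Fasn 1.62-fold. Saturation of the Fasn probes (13.44 to 13.81 in low fat mice) was not determined. Limma adjusted p was 0.000144 for Acaca, 0.000194 for Acacb, 0.0118 for Acly and 0.000239 for Fasn. Acly did not pass without high fat mouse 1 and low fat mouse 2 together (-0.81).

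Among 16 genes on the list of regulators of lipogenesis 6 fell and 0 rose, where 9.13% of all genes fell and 12.4% rose. The list does not separate genes that promote lipogenesis from genes that restrain it, so the count gives no direction for the pathway. Pparg (-0.34) and Insig2 (-0.31) are among the 6 and are named here to complete the count. Thrsp, a lipogenic regulator of adipose tissue and liver, was 2.66-fold lower, Mlxipl, which encodes the carbohydrate-responsive factor ChREBP, 1.53-fold, Srebf1, which encodes the sterol-regulated factor SREBP-1, 1.42-fold, and the nuclear receptor gene Ppara 1.39-fold. Srebf1 was at 9.80 to 9.95 in high fat mice and 10.29 to 10.53 in low fat mice. Limma adjusted p was 9.89e-05 for Thrsp, 0.000466 for Srebf1, 0.00135 for Mlxipl and 0.00559 for Ppara. Nr1h2 was not analysed here.

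**Figure D3:**
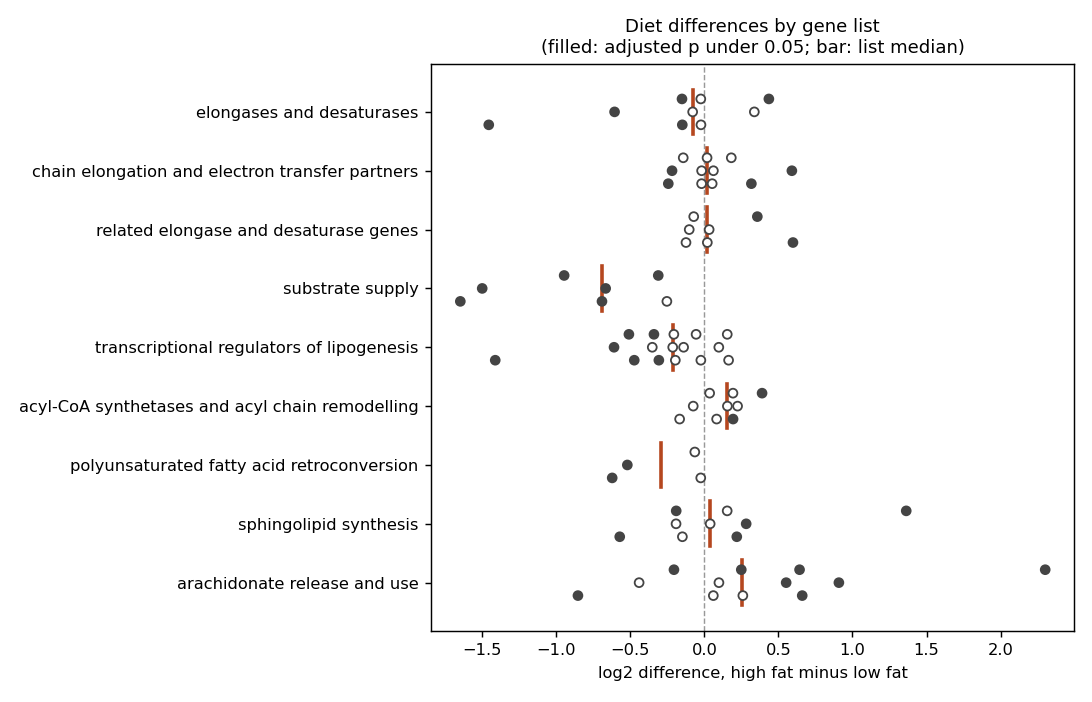
Log2 differences between high fat and low fat diet are shown for the 9 measured members and for each gene of the 8 pathway lists, filled where the adjusted p was below 0.05, with the list median as an orange bar. Substrate supply has the lowest median, at -0.69, and arachidonate release and use the highest, at 0.25.

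The lists of genes that use the products were mixed. Of 12 genes of arachidonate release and use 6 rose and 2 fell, where 12.4% of all genes rose and 9.13% fell. Hpgds, a prostaglandin D synthase gene, was at 9.57, 9.72, 9.97, 8.73 and 8.76 in high fat mice 1 to 5, against 7.30, 6.96, 6.93 and 7.00 in low fat mice 1 to 4, a 4.93-fold increase. The leukotriene genes Ltc4s and Alox5ap were 1.58-fold and 1.56-fold higher, and Ptges, a prostaglandin E synthase gene, was 1.81-fold lower. Limma adjusted p was 0.000238 for Hpgds, 0.000213 for Ltc4s, 0.000688 for Alox5ap and 0.000369 for Ptges. High fat mice 1, 2 and 3, highest in Hpgds and in Alox5ap, also had the highest macrophage marker means (11.73, 11.85 and 11.96, against 11.32 and 11.41 in high fat mice 4 and 5). Ltc4s, by contrast, was highest in high fat mouse 4 (10.59). The part of macrophages in any of these changes was not tested.

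Of 9 sphingolipid synthesis genes 3 rose and 2 fell, where 12.4% of all genes rose and 9.13% fell. Sptlc3 and Sptlc2, subunit genes of serine palmitoyltransferase, were 2.57-fold and 1.22-fold higher. Kdsr, which acts next, was 1.49-fold lower, and Cers2, the ceramide synthase for very long chains, 1.14-fold lower. Limma adjusted p was 0.00103 for Sptlc3, 0.0171 for Sptlc2, 0.00135 for Kdsr and 0.0259 for Cers2. Cers2 no longer passed with any 1 of high fat mice 1, 4 and 5 or low fat mice 2, 3 and 4 left out (-0.20 to -0.16) or with its probe sets averaged (-0.13). Without high fat mice 1 and 2 together, neither Sptlc2 (0.28) nor Cers2 (-0.20) passed, nor did they without high fat mouse 1 and low fat mouse 2 together (0.30 and -0.15).

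Of 9 acyl-CoA synthetase and acyl chain remodelling genes 2 rose, the acyltransferases Mboat1 (1.31-fold, limma adjusted p = 0.00204) and Lpcat1 (1.14-fold, limma adjusted p = 0.0218), and 7 did not pass. Lpcat1 no longer passed without high fat mouse 2 (0.18) or low fat mouse 2 (0.17) or 4 (0.17), nor with high fat mouse 1 left out together with high fat mouse 2 (0.16) or low fat mouse 2 (0.16). Of 4 genes of polyunsaturated fatty acid retroconversion in peroxisomes 2 fell, the sterol carrier gene Scp2 (1.54-fold lower, limma adjusted p = 0.000923) and the peroxisomal transporter gene Abcd2 (1.43-fold lower, limma adjusted p = 0.0023). Over the 8 lists, 15 of 75 genes rose and 20 fell, and the median was -0.02. The shares over all genes, also for the lists of this paragraph, were 12.4% higher and 9.13% lower. Acsl1, Acsl3, Cers1 and Ptgs1 were not analysed here.

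The list mean of the 8 adipocyte markers was 12.18 to 12.35 in high fat mice, against 12.60 to 12.68 in low fat mice, a difference of -0.40. Slc2a4 fell most among these markers (-1.20), and the others lay between -0.48 (Plin1) and -0.06 (Lpl). A list mean without Slc2a4 was not tested, so the values below hold for the list with Slc2a4 in it. Taken relative to the mean of all 8 markers in each array, a comparison chosen after the data were seen, Elovl6 was still lower by diet (-1.06) and Fads1 was at -0.21, whereas Scd1 was at 0.25, Elovl5 at 0.24 and Elovl1 at 0.83. On that scale 6 members passed as higher (Elovl1, Elovl3, Elovl4, Elovl5, Elovl7 and Scd1) and 1 as lower (Elovl6). The median of all genes was 0.40 there, so Elovl6 and Fads1 lay below that median, Scd1 and Elovl5 below it by a small amount, and Elovl1 above it.

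**Figure D4:**
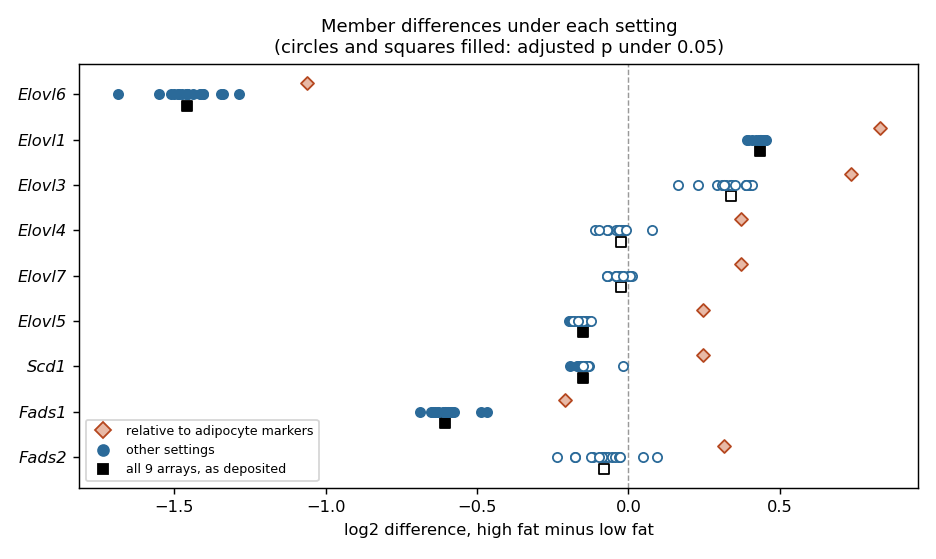
The log2 difference of each measured gene is shown in the values as deposited (squares), under each alternative setting (circles) and relative to adipocyte markers (diamonds, values only). Circles and squares are filled where the adjusted p was below 0.05. Elovl6, Fads1 and Elovl1 stay filled in every circle, while Elovl5 and Scd1 show both filled and open circles. The open circle of Scd1 nearest to 0, at -0.02, is repeated quantile normalization.

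The genes with the nearest profiles were taken for the 3 members with the largest differences, by the root mean square distance over the 9 arrays after each gene was centred on its own mean. For Elovl6 they were Aacs, acetoacetyl-CoA synthetase, at a distance of 0.21 log2 units, Acaca at 0.22 and Thrsp at 0.23. Aacs was at 9.09, 9.09, 8.88, 9.08 and 8.96 in high fat mice 1 to 5, against 10.22, 10.76, 9.90 and 10.28 in low fat mice 1 to 4. The low fat mice at its ends were those of Elovl6, a likeness that follows from choosing genes by nearness over these same arrays. For Fads1 they were Sh2b2, an adaptor gene of insulin signalling (0.07), Ggact (0.09) and Mcrip2 (0.09). For Elovl1 they were Arpc2, an actin-nucleating complex subunit (0.04), Piezo1, a mechanically gated channel (0.04), and Fam13b (0.04). The distances depend on how much each gene varied, so they are not comparable between members.

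**Figure D5:**
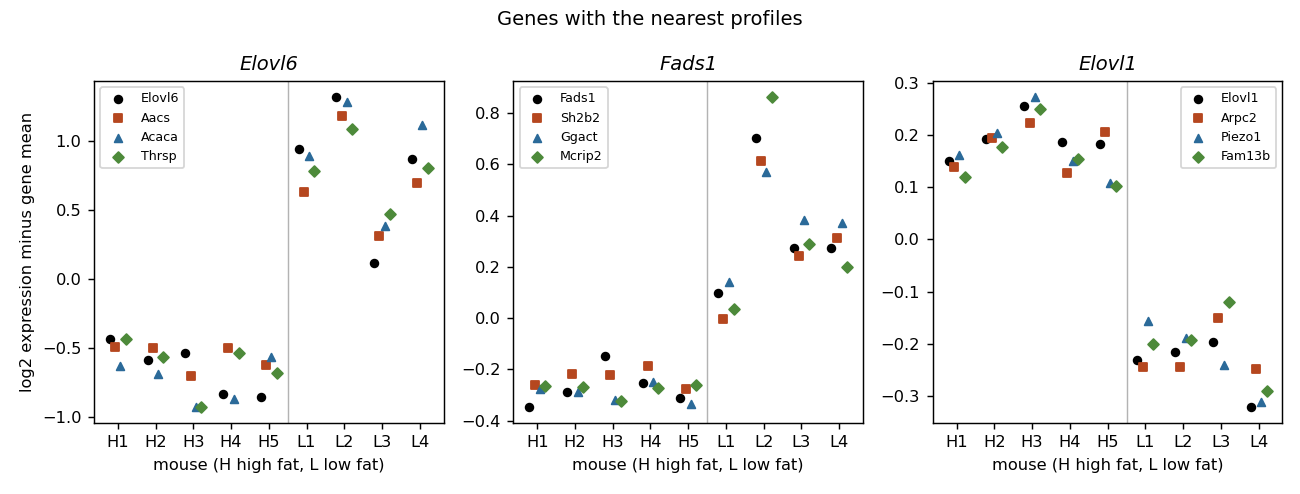
Log2 expression minus the gene's own mean is plotted by mouse (H1 to H5 high fat, L1 to L4 low fat) for Elovl6, Fads1 and Elovl1, each with its 3 nearest genes. The Elovl6 group peaks in low fat mouse 2 and is lowest among low fat mice in low fat mouse 3, a dip that is absent from the Fads1 and Elovl1 groups. Genes were chosen for nearness over these same arrays, so a shape shared within a group follows from that choice.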

How the data were processed

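The authors deposited log2 values, 1 for each probe set and array. RMA, limma and R 3.5.0 are named in the submitters' processing notes without what each was used for. Any filter on rows, and the annotation release, were not given in the sources used here. Values ran from 4.41 to 14.2, and precision is limited by the 9 arrays.

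Of 33793 rows, 23521 have 1 gene symbol. Where several shared a symbol the brightest was kept, which left 22180 genes. Symbols were checked by Entrez ID against RefSeq GRCm38.p6 (23328 matched, 0 changed), used for names, gene order and promoter sequences. Diet was tested with limma 3.58.1 (lmFit, eBayes; intercept and diet) in R 4.3.3, high fat minus low fat, with Benjamini-Hochberg adjustment over all genes. The procedure was tested on simulated data with independent noise for each gene and few changed genes. Those data had no shift shared by many genes within a mouse, so they do not cover that case. Gene pairs were tested with scipy 1.17.1; Scd1 minus Scd2, planned as a further pair, was not run. Members, lists and pairs were chosen with earlier results of these data known. All members were named, and in each list the 4 genes with the smallest p among those past the threshold, plus Srebf1, Mlxipl, Hsd17b12, Tecr, Cyb5a, Fasn and Acaca; for the 3 called members with the largest differences, the 3 genes nearest by root mean square distance were named too. Some further genes were named for their position, to complete a count or to show the range of a list. The labels number the mice within each diet, so a replicate is an animal, and alternatives covered scaling, filters, probes, the variance model, array weights, mouse number and left-out mice.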

Additional observations from a re-analysis of the deposited data

Results flagged for a closer look

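In 6 of 104 groups of values examined, 1 mouse lay apart from the rest of its diet group by Dixon's gap at the 95% level, which chance gives in about 1 in 20 groups. Elovl3 was at 5.82 in low fat mouse 2, and the rest of that group had 5.52 to 5.54. The brown adipocyte marker mean was 8.26 in low fat mouse 2, and the rest of that group had 7.34 to 7.49. The smooth muscle marker mean was 10.53 in low fat mouse 2, where the rest had 8.14 to 8.18. Hsd17b12 was at 10.00 in low fat mouse 3, where the rest had 10.43 to 10.51, and the sebaceous and epidermal marker mean was 6.60 in low fat mouse 3, where the rest had 6.12 to 6.13. The skeletal muscle marker mean was 8.41 in high fat mouse 1, where the rest of the high fat group had 6.23 to 6.32.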

How the results depend on the processing

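Elovl6, Fads1 and Elovl1 kept their direction and their calls in all alternatives other than the adipocyte marker scale, on which Fads1 missed the threshold (-0.21), and a required log2 difference of 0.5, which Elovl1 did not reach. The count of members called was 3 without high fat mice 1 and 2 together, 3 without high fat mouse 1 and low fat mouse 2 together, 2 with that difference of 0.5 required, and 3 to 5 with each mouse left out in turn. Without each mouse in turn, pathway genes called ranged from 28 to 34 (35 with all mice) and all genes called from 3759 to 4364 (4768 with all mice). None of the 4 gene pairs passed with either 2 mice left out (0 and 0), where each had an adjusted p of 0.0714 and no exact p below 0.0571 is possible. On the adipocyte marker scale, added after the data were seen, Elovl4 (0.37), Elovl5 (0.24), Elovl7 (0.37), Scd1 (0.25) and Fads2 (0.32) turned upward and 7 members passed (6 higher, 1 lower), by construction of a scale on which the median gene is at 0.40. Near-zero differences turned without low fat mouse 3 (Elovl4 0.077, Elovl7 0.004), without high fat mouse 3 (Elovl7 0.011), without low fat mouse 2 (Fads2 0.046, Tecr 0.069), without high fat mouse 1 and low fat mouse 2 (Fads2 0.095, Tecr 0.082), with array weights (Tecr 0.011), and for Elovl5 minus Fads2 without high fat mouse 5 (0.038) or low fat mouse 4 (0.11). Leaving out a mouse, the ranges were -0.11 to 0.077 for Elovl4, -0.071 to 0.011 for Elovl7, -0.23 to 0.046 for Fads2, -0.067 to 0.069 for Tecr and -0.20 to 0.11 for that pair. Other causes of these changes were not tested. The labels state no pairing of mice across diets, and correlations of same-numbered deviations were 0.05 to 0.13. The same-numbered low fat mouse was the best match for high fat mice 2 and 3 but not for 1 and 4. No low fat mouse has the number of high fat mouse 5, so the block fit gives the same differences as the fit without that mouse. With the mouse number as a replicate block, 4 members (2 higher, 2 lower), 32 pathway genes and 4036 genes were called: Elovl3 passed (0.39, limma adjusted p = 0.0182), and Scd1 (-0.16), Elovl5 (-0.14) and Lpcat1 (0.21) did not, with no other call of a named gene changed.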
